A study of Mus musculus with 2 samples.

Results

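Mir208a, Mir208b, Mir499 and Mir490 are 4 microRNA (miRNA) genes that lie inside larger genes of the heart muscle cell. They were selected by gene symbol, from the annotation of the mouse genome, for their hosts: the heavy chain myosin genes Myh6, Myh7 and Myh7b and the muscarinic receptor gene Chrm2. All 4 were among the 1973 miRNA genes listed in the count files, of which 1286 had 0 counts in both libraries. The study sequenced small RNAs, with a labelled size range below 30 nucleotides, from total RNA of healthy mouse embryonic hearts of strain B6NCrl at day 15.5. It holds 1 group of 2 biological replicates. Replicate 1 pooled the hearts of 78 embryos, males and females together, and for replicate 2 those of 62 were pooled likewise. The labels name no treatment and no genetic change, so no condition is compared, and what is described is the level of each miRNA, the ratios between them and the spread between the pools. Whole hearts also hold vessel, connective tissue and blood cells. Fewer heart muscle cells and less miRNA per cell cannot be told apart in such samples.

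A miRNA is cut from a hairpin in a longer transcript, and its short mature strand guides a protein complex to mRNAs that match bases 2 to 8 of the strand, the seed. The miRNAs of the myosin genes, often called myomiRs, are made from introns in the transcripts of these genes. In mice Myh7 encodes the slow beta myosin heavy chain, which prevails in the ventricles before birth, and Myh6 the fast alpha chain, which prevails after birth. Myh7b is an older relative of both, and Chrm2 encodes the M2 receptor through which the vagus nerve slows the heart. Mir208a is known from knockout mice for its part in the response of the adult heart to stress and for its control of Myh7 and Myh7b.

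The counts refer to whole hairpins, so the hairpins are shown first, with the letters of both mature strands in capitals. They were matched by symbol for 4 of 4 genes and come from RefSeq (GRCm38.p6, the assembly mm10), read 5′ to 3′ on the strand of the gene.
Mir208a hairpin: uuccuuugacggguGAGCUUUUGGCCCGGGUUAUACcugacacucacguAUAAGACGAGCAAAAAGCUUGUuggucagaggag
Mir208b hairpin: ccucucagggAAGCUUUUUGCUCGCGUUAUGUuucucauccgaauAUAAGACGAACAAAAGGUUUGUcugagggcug
Mir499 hairpin: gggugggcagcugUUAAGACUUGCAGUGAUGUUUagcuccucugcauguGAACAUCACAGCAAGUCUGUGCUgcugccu
Mir490 hairpin: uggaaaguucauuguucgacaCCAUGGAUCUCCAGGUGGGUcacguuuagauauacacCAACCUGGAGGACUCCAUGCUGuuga

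Of each hairpin, the strand that is generally regarded as the working one is shown next, now with the seed in capitals, because the seeds show which members are related. The deposited counts do not separate the strands of a hairpin, so their shares were not measured here.
miR-208a-3p: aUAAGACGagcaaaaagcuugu
miR-208b-3p: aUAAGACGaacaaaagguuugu
miR-499-5p: uUAAGACUugcagugauguuu
miR-490-3p: cAACCUGGaggacuccaugcug
The seeds of miR-208a-3p and miR-208b-3p were identical, and their 22 bases matched at 19 positions. Counted from 1 at the 5′ end of miR-208a-3p, the 3 differences were G10A, A16G and C18U, where the letter before the position is that of miR-208a-3p. Against miR-208a-3p, miR-499-5p kept bases 2 to 7 and differed in the seed at the last base alone, by G8U. Over all 21 positions compared, these strands had 9 differences. The other strands, miR-208a-5p and miR-208b-5p, also shared their seed, and differed at 6 of 22 positions. The seed of miR-490-3p was shared with no other member.

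Among the 1738 mature strands in the RefSeq table, which is not complete, the seed of miR-208a-3p and miR-208b-3p occurred in these 2 alone. The seeds of both strands of Mir499 and of Mir490 occurred in no other entry. The seed of the 5p strands of Mir208a and Mir208b was also that of miR-6415, whose gene Mir6415 had 0 counts in both libraries, which allows levels of up to 0.872 and 0.514 counts per 1000000 (CPM) in replicates 1 and 2. These limits, like all intervals given here, stand for 3 counts or for counting error only.

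On mm10, Mir208a (ENSMUSG00000065432.1) lies on the minus strand of chromosome 14, positions 54949060 to 54949142. It falls in intron 29 of the 39-exon coding transcripts of Myh6, an intron of 542 bases. Mir208b (ENSMUSG00000077928.1) lies on the same strand at positions 54975700 to 54975776, in intron 31 of the 41-exon coding transcripts of Myh7, which is 461 bases long. The hairpins are 26557 bases apart, and 3756 bases separate the end of Myh7 from the annotated start of Myh6. Mir499 (ENSMUSG00000076312.1) lies on the plus strand of chromosome 2, positions 155622880 to 155622958, in intron 19 of the 42-exon coding transcript of Myh7b, which measures 481 bases. The myosin hosts are thus alike in that each holds its hairpin in a short intron, within 102 to 195 bases of the exon before it and 244 to 282 bases of the exon after it.

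Mir490 (ENSMUSG00000070075.1) has another setting. It lies on the plus strand of chromosome 6, positions 36421742 to 36421825, in intron 2 of the 3-exon coding transcript of Chrm2. That intron spans 134418 bases, and the hairpin sits 32990 bases after the exon before it and 101344 bases ahead of the next. In a noncoding transcript of the same gene, the intron that holds it is 55369 bases long. None of the 4 hairpins overlapped an exon of a host transcript in the GENCODE M21 annotation. The plot of the host genes shows the crowded exons around the myosin hairpins and the wide intron around Mir490.

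**Figure D1:**
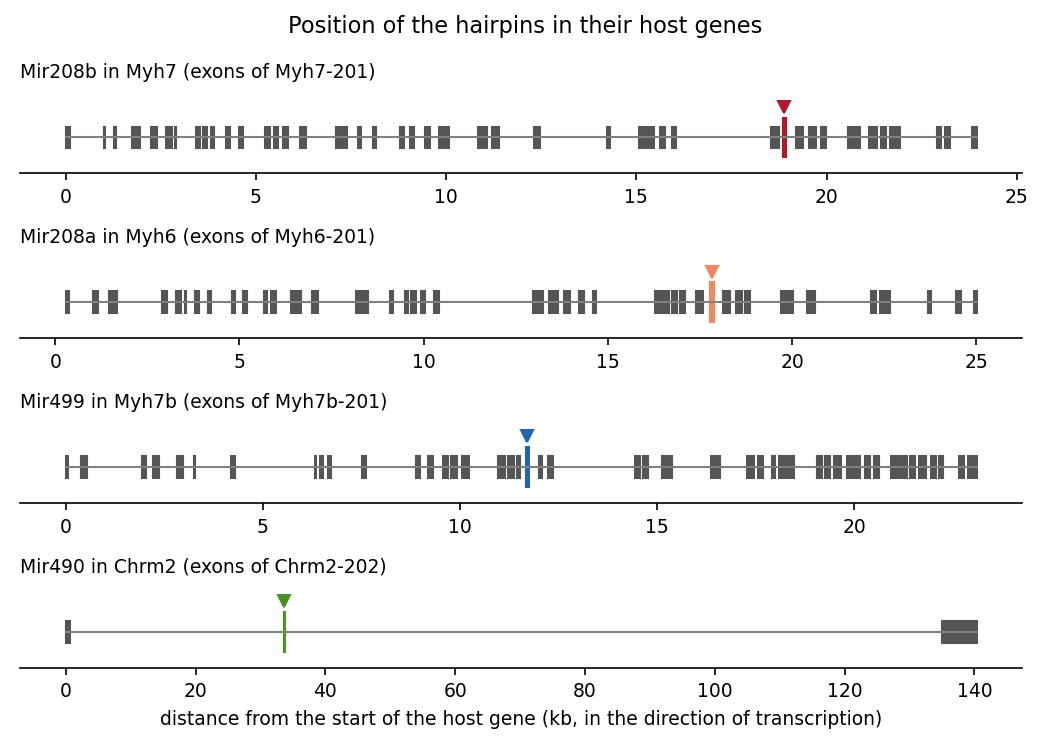
Exons (grey boxes) of 1 coding transcript each of Myh7, Myh6, Myh7b and Chrm2 against the distance from the start of the host gene in kb, each panel on its own scale, with the miRNA hairpin as a coloured bar under a triangle. The hairpins of Mir208b, Mir208a and Mir499 sit in introns of 461, 542 and 481 bases, and that of Mir490 in an intron of 134418 bases.

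Replicate 1 held 3439539 counts on the strand of a miRNA gene and replicate 2 held 5833156, so that 1 count was worth 0.291 and 0.171 CPM. Reads that matched several places, 33.0% and 30.1% of all reads, were in no gene count. The libraries also differed in miRNAs of other cell types. The epithelium list, led by Mir429, summed to 1821 CPM in the first replicate and to 6297 CPM in the second. The erythroid list, led by Mir451a, summed to 2376 and 986 CPM. Its difference lay in Mir451a alone (1975 and 564 CPM), as Mir144 had 401 and 422 CPM. Smooth muscle, led by Mir143, had 83564 and 89291 CPM. Its other gene, Mir145a, went the other way, with 1110 and 899 CPM. Endothelium, here Mir126a, had 79217 and 67775 CPM. The fibroblast and mesenchyme list, led by Mir21a, had 21890 and 24646 CPM. Its genes did not move together. Mir21a had 16312 and 15722 CPM, Mir214 2336 and 3536 CPM, and Mir140 2830 and 4972 CPM. Mir199a-2 was also higher in replicate 2, while Mir199a-1 and Mir199b were lower. The leukocyte list, led by Mir223, had 480 and 702 CPM from 3 of its 5 genes. Mir142 and Mir146a were not found among the counted genes. The neural list, led by Mir137, had 83.4 and 290 CPM, with 4 of its 8 counted genes at 0 in both libraries, among them all 3 copies of Mir124a. Reads that several copies share are in no gene count, so these zeros do not show absence. The shared stretches of these genes were not examined. Mir122 of the liver had 87.2 and 309 CPM.

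Mir208b, the miRNA of the beta myosin gene, was by far the most abundant of the 4. It had 185314 counts in replicate 1 and 220708 in replicate 2, or 53878 CPM (exact binomial 95% interval 53639 to 54117) and 37837 CPM (37682 to 37992). The mean was 45857 ± 11343 CPM (SD, n = 2), which is 4.59% ± 1.13 of all counts on miRNA genes. Replicate 1 was the higher, and the intervals of the libraries did not overlap, so that the pools differed by more than counting error.

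Mir208a, the miRNA of the alpha myosin gene, had 20540 and 33837 counts in replicates 1 and 2. Its level was 5972 CPM (5891 to 6054) in the first and 5801 CPM (5739 to 5863) in the second, with a mean of 5886 ± 121 CPM (n = 2). The intervals did not overlap, but the pools lay close together for this gene, with a coefficient of variation (CV) of 2.05%, against 24.7% for Mir208b. Over all genes with at least 10 counts summed, the common CV beyond counting noise was 29.7% (edgeR, both libraries as 1 group). That value was taken after scaling of the library sizes by the trimmed mean of M-values method (TMM) of edgeR. By total counts the CVs of all 4 members lay below it. After TMM, Mir208b had 46537 ± 15944 CPM and Mir499 2189 ± 685 CPM, which are CVs above that value. Mir208a and Mir490 stayed below it.

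Mir499 is the miRNA of Myh7b, and its seed differs from that of Mir208a and Mir208b at 1 base. It had 8570 and 10667 counts, or 2492 CPM (2439 to 2545) in replicate 1 and 1829 CPM (1794 to 1864) in replicate 2. The mean was 2160 ± 469 CPM (n = 2), with a CV of 21.7%. As with Mir208b, the library of replicate 1 was the higher and the intervals did not overlap.

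Mir490, the miRNA of the receptor gene, was the least abundant of the 4. It had 405 and 736 counts, or 118 CPM (107 to 130) and 126 CPM (117 to 136), with a mean of 122 ± 5.96 CPM (n = 2). Here the intervals overlapped, and a difference between the pools was not detectable at this depth. The opposite strand of all 4 hairpins had 0 counts in both libraries, so each level is the same whichever strand is counted, apart from the total it is divided by.

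**Figure D2:**
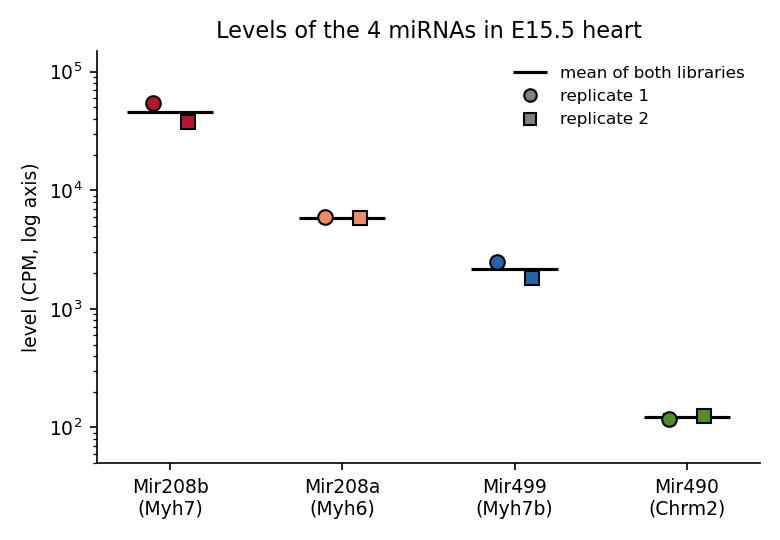
Level in CPM (log axis) of the 4 miRNAs, with their host genes in brackets, in replicate 1 (circles) and replicate 2 (squares); bars across the points are means of both libraries and whiskers are exact binomial 95% intervals, mostly smaller than the points. Mir208b lies between 37837 and 53878 CPM, Mir208a near 5886 CPM, Mir499 between 1829 and 2492 CPM and Mir490 near 122 CPM.

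Together the 4 genes held 6.25% of the counts in replicate 1 and 4.56% in replicate 2. Of their sum, 86.3% came from Mir208b in the first library, with an exact interval of 86.1% to 86.4%, and 83.0% (82.8% to 83.1%) in the second. The share of Mir208a was 9.56% (9.44% to 9.69%) in replicate 1 and 12.7% (12.6% to 12.9%) in replicate 2. Mir499 kept nearly the same share, 3.99% (3.91% to 4.07%) and 4.01% (3.94% to 4.09%), with overlapping intervals. Mir490 made up 0.189% and 0.277% of the sum. The order Mir208b, Mir208a, Mir499, Mir490 was the same in both libraries, and no neighbours in that order overlapped.

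Mature strands of the 4 genes are 20 to 23 bases long, so counts per hairpin need no correction for length, although a ratio of counts between miRNAs need not be a ratio of their amounts, because small RNA libraries take up sequences unequally. Within a library such ratios do not depend on the depth. For each count of Mir499 there were 21.6 of Mir208b in replicate 1 (21.2 to 22.1, exact) and 20.7 in replicate 2 (20.3 to 21.1). This ratio differed between the pools by 1.05-fold, the smallest difference among the 6 pairs. The intervals missed each other narrowly, so even this ratio moved by slightly more than counting error.

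The ratio of Mir208b to Mir208a was 9.02 (8.89 to 9.15) in replicate 1 and 6.52 (6.45 to 6.60) in replicate 2, a 1.38-fold difference between the pools. For Mir208a to Mir499 the ratios ran the other way, at 2.40 (2.34 to 2.46) and 3.17 (3.10 to 3.24). Mir208b and Mir499 were thus higher against Mir208a in replicate 1 than in replicate 2.

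Mir490 was far below the myosin miRNAs. There were 458 counts of Mir208b for each of Mir490 in replicate 1 (415 to 506) and 300 in replicate 2 (279 to 323). For Mir499 to Mir490 the ratios were 21.2 (19.2 to 23.4) and 14.5 (13.4 to 15.6). For Mir208a to Mir490 they were 50.7 (46.0 to 56.1) and 46.0 (42.7 to 49.5), the only pair of the 6 whose intervals overlapped. The ratios that moved least between the pools were thus Mir208b to Mir499 and Mir208a to Mir490, as the plot of the ratios shows. With 2 libraries this describes 1 difference between pools and is no measure of co-regulation.

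**Figure D3:**
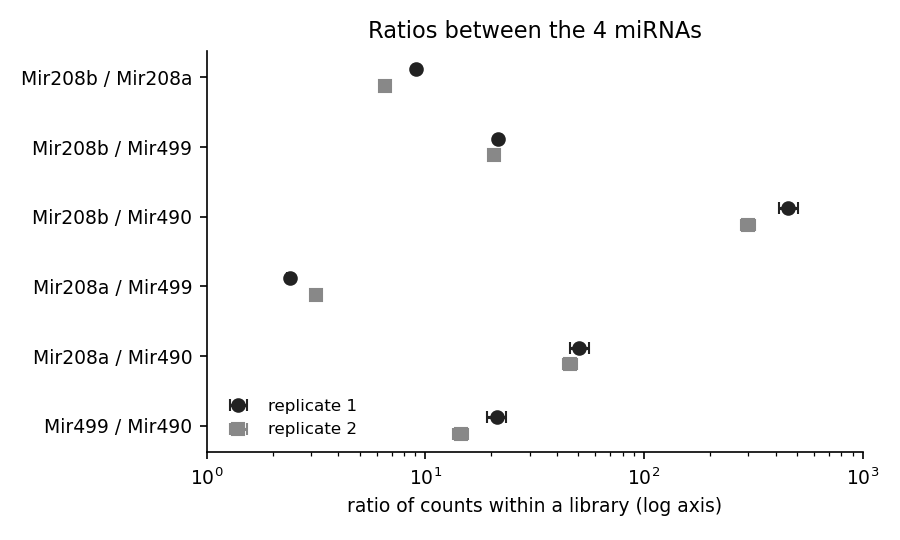
Ratio of counts (log axis) for the 6 pairs of the 4 miRNAs in replicate 1 (black circles) and replicate 2 (grey squares), with exact binomial 95% intervals. Mir208b to Mir499 lies at 21.6 and 20.7, while Mir208b to Mir208a lies at 9.02 in replicate 1 and 6.52 in replicate 2.

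Detection, taken as 10 or more counts in each library, was met by 327 genes, whose median level was 146 CPM. Mir208b ranked 8 among all 1973 genes, in each library as well as by the mean, at 313 times that median. Mir208a ranked 26 (24 in replicate 1 and 29 in replicate 2), at 40.2 times the median, and Mir499 ranked 53 (46 and 65), at 14.8 times. Mir490 ranked 175 (166 and 177), below the median at 0.833 times its value. Of these genes, 138 were intronic, that is, within a same-strand host and clear of its exons, and in that set the ranks were 4, 12, 26 and 76. Above Mir208b in that set stood Mir335 in Mest (96967 ± 1311 CPM), Mir99a in Mir99ahg (61179 ± 2081 CPM) and Mirlet7g in Wdr82 (56410 ± 68.7 CPM). The 4 genes gave 13.4% of the counts on intronic miRNA genes in replicate 1 and 10.1% in replicate 2. All these ranks, medians and shares leave out reads that matched several places (33.0% and 30.1% of all reads in replicates 1 and 2). A gene that shares its reads with another copy can therefore stand too low in the order.

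By total counts, Mir208b stood clear of its neighbours in the order of levels. Its range did not reach that of Mirlet7g above it (56459 and 56362 CPM in replicates 1 and 2) or that of Mir26b below it (33707 and 30006 CPM). After TMM scaling Mir208b spread more widely (46537 ± 15944 CPM), and its range reached those of both. Within each library it lay below Mirlet7g and above Mir26b, whatever the scaling. The other 3 could not be told from their neighbours. Mir208a overlapped with Mir98 above it (6025 ± 350 CPM) and Mir93 below it (5799 ± 192 CPM). Mir499 overlapped with Mirlet7f-2 (2180 ± 76.3 CPM) and Mir296 (2133 ± 222 CPM). Mir490 overlapped with Mirlet7c-1 (125 ± 11.3 CPM) and with Mir141 (121 ± 103 CPM), an epithelial miRNA with a wide spread. Mirlet7f-2 and Mirlet7c-1 are numbered copies, and reads shared between copies are in no gene count. Their values may therefore be too low as levels, which was not tested.

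**Figure D4:**
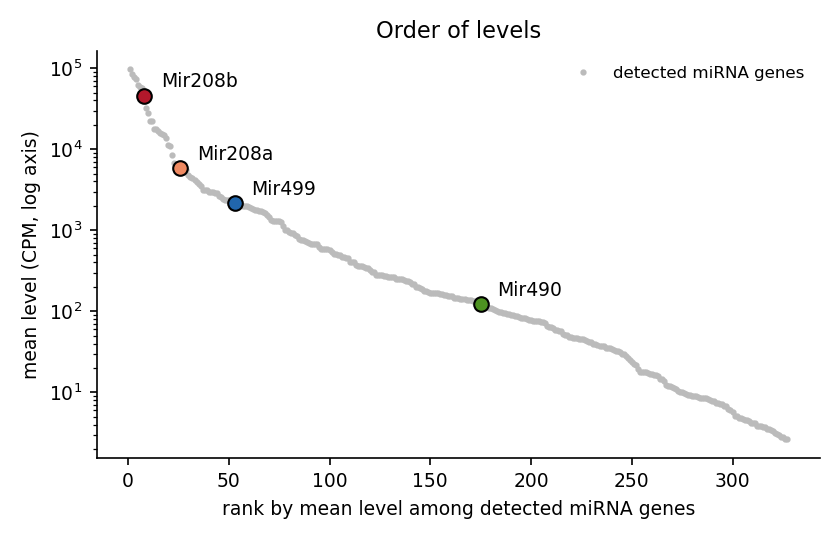
Mean level in CPM (log axis) of the 327 detected miRNA genes (grey) against their rank, with the 4 miRNAs in colour and vertical lines for the range over both libraries. Mir208b, Mir208a, Mir499 and Mir490 hold ranks 8, 26, 53 and 175.

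Of 8 other miRNAs known from muscle 7 were listed, with a summed level of 160 CPM in replicate 1 and 218 CPM in replicate 2, below each of the 3 myosin miRNAs and above Mir490. Mir1a-1, which with Mir133a is the classical miRNA of heart and skeletal muscle, had 3 counts in replicate 1 and 4 in replicate 2. Mir133a-1 had 5 and 7 counts, Mir133a-2 had 1 and 4, Mir133b had 8 and 14, and Mir1b had 5 and 9. The hairpins of Mir1a-1 and Mir1a-2 share a stretch of 28 bases, those of Mir133a-1 and Mir133a-2 one of 31, and that of Mir133b one of 21 with Mir133a-1. A read that lies wholly within such a stretch matches several places, so these low counts are uncertain as levels, and the part of such reads in them was not tested. Mir1b shares at most 13 bases with another hairpin when both are read on the strand of the gene. Matches to the opposite strand were not searched, for Mir1b or for any other hairpin here. Its low counts are therefore uncertain as levels too. Mir1a-2 was not analysed here.

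For the 4 genes in myosin and receptor introns, shared stretches on the strand of the gene were short. The longest stretch that any of their hairpins shared with another of the 2202 miRNA hairpins in GENCODE M21 was 12 bases, for Mir208a, Mir499 and Mir490, and 11 bases for Mir208b. Each of their 8 mature strands occurred, letter for letter, in the transcripts of 1 gene. Copies outside annotated transcripts or on their opposite strand were not searched. Whether reads with sequencing errors were exchanged between Mir208a and Mir208b, 3 differences apart, was not tested. Mir206, the miRNA of skeletal muscle, shares at most 13 bases with another hairpin. Its levels of 73.3 and 102 CPM were below those of Mir490 in the same libraries. Mir486, a miRNA of blood and muscle, had 80.8 and 110 CPM and shares 22 bases with Mir3107.

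The difference between the pools was also read against counting noise. Each of 413 genes with at least 10 counts summed was given an exact binomial test, two-sided and conditional on its sum. Library sizes were scaled with the trimmed mean of M-values method (TMM) of edgeR, and p-values were adjusted by Benjamini-Hochberg over all 413 genes. This test compares these 2 libraries, not conditions, and leaves out the usual spread between pools. At an adjusted p under 0.05 in the exact test, 46.0% of all genes were called, and 24.0% were called higher in replicate 1. Of the 4 members 3 were called, all of them higher in replicate 1. Genes with many counts are called easily: with a mean of at least 1000 CPM, 84.8% of 79 genes were called, so the 3 calls among the 3 members of that level are near what all such genes gave.

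The sizes of the differences set the members apart from each other more than the calls do. Mir208b was higher in replicate 1 by a log2 ratio of 0.71 (counting interval 0.70 to 0.72), with a p from the exact test too small to be represented. Of the 79 genes with at least 1000 CPM only 3 had a larger absolute log2 ratio, and the median over these genes was 0.19. Mir499 had a log2 ratio of 0.65 (0.61 to 0.69, adjusted p = 3.6e-205 by the exact test), and 5 of the 79 were larger. Mir208a had 0.25 (0.22 to 0.27, adjusted p = 4.5e-80 by the exact test), and 31 were larger. For Mir490 the log2 ratio was 0.10 (-0.07 to 0.28, adjusted p = 0.367 by the exact test).

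The scaling matters for these values. By total counts in place of TMM the log2 ratios of all genes moved by -0.20 at the median, and the calls higher in replicate 1 went from 52.1% to 23.6% of all calls. By total counts Mir208b had a log2 ratio of 0.51 and Mir499 of 0.45, still called. Mir208a came to 0.04 (adjusted p = 0.00262 by the exact test), a call at a far smaller size. Mir490 turned to -0.10 and stayed uncalled. Mir208b and Mir499 were therefore higher in replicate 1 under either scaling, while the size for Mir208a and the direction for Mir490 depend on it.

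**Figure D5:**
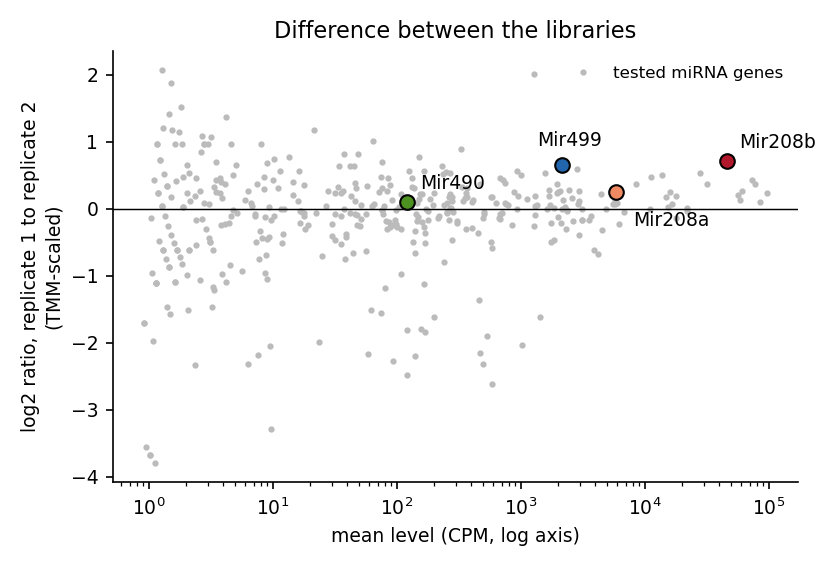
Log2 ratio of replicate 1 to replicate 2 after TMM scaling against the mean level in CPM (log axis) for the 413 tested miRNA genes (grey), with the 4 miRNAs in colour. Mir208b (0.71) and Mir499 (0.65) lie above most genes of like level, Mir208a (0.25) nearer to 0 and Mir490 at 0.10.

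The genes at or above 1000 CPM whose log2 ratio was nearest to that of Mir208b, members aside, were Mir107 (0.60, with 3227 and 2455 CPM in replicates 1 and 2), Mir30e (0.54, with 31002 and 24543 CPM) and Mir16-1 (0.53, with 1732 and 1380 CPM). Over 2 libraries such likeness is weak, since each gene is described by 1 ratio.

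Set against miRNAs listed here as markers of other heart cell types, in the same library, the members moved unequally. Whether heart muscle cells at this age also express these markers was not tested. The ratio of Mir208b to Mir126a, a miRNA of endothelium, was 0.680 in replicate 1 (0.676 to 0.684) and 0.558 in replicate 2 (0.555 to 0.561), and that of Mir208a was 0.0754 and 0.0856. Against Mir143 of smooth muscle, Mir208b had a ratio of 0.653 and 0.428 and Mir490 one of 0.00143 in both libraries. Against the fibroblast-associated Mir21a, Mir208a had 0.366 (0.360 to 0.372) and 0.369 (0.364 to 0.374), while Mir208b had 3.30 and 2.41. Against each of these 3 markers Mir208b and Mir499 stood higher in replicate 1, and the ratio of Mir208a differed less between the replicates than theirs. These ratios hold for the single markers named and not for their lists. Mir145a, Mir214 and Mir140 each moved against the leading gene of their own list.

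The marker Mir205 of stratified epithelium and the erythroid Mir451a shifted far more than any member did. There were 363 counts of Mir208b for each of Mir205 in replicate 1 and 44.4 in replicate 2, an 8.18-fold difference. For Mir451a the ratios of Mir208b were 27.3 and 67.1. The rise in replicate 2 holds for Mir451a and not for Mir144, the other erythroid gene listed. The epithelium sum was 3.46 times higher in replicate 2 and the erythroid sum 2.41 times higher in replicate 1. The part of such other cells in the lower share of Mir208b and Mir499 in replicate 2 was not tested.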

How the data were processed

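Small RNAs of 2 libraries, 1 for each pool of E15.5 hearts, were analysed from whole, unnormalized read counts per miRNA gene as deposited by the authors. Per the text files deposited with them, reads were placed on mm10 and counted on GENCODE M4. Not given in the sources used here are the aligner, trimming and counter. Counts on the gene's strand were used (strand columns told from the values), and the 4 leading lines that name no gene stayed out of totals (unmapped reads 13.1% and 15.1%, reads on no feature 5.11% and 5.07% in replicates 1 and 2, multimapping reads as given above). Of 1973 gene IDs, 1894 matched GENCODE M21 without version, and those of the 4 members matched with it.

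Levels are CPM with mean and SD (n = 2) and exact Clopper-Pearson 95% intervals. TMM and the common dispersion came from edgeR 4.0.16 (R 4.3.3) and alternative size factors from DESeq2 1.42.0. With 1 group, no quasi-likelihood test was possible. Each gene was compared between libraries as described above, with 0.5 added to counts for log2 ratios. Python 3.11.15 and scipy 1.17.1 served for the rest. The test was checked on simulated counts with counting noise alone, as the test assumes. That check says nothing on the spread between pools. The members, marker lists and the rule for named genes (members, neighbours in level, nearest log2 ratios, leading list genes) were chosen with earlier results of these data known. Alternatives were other scalings, either strand, a filter of 1 count, all reads as the total, and single libraries.

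Counts are of reads, not of molecules, and p-values measure only counting noise between libraries.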

Additional observations from a re-analysis of the deposited data

How the results depend on the processing

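The order of the 4 miRNAs and the sign of all 6 ratios between them were the same in each library. Counting either strand could not change them, as the members had 0 counts on the opposite strand. Per 1000000 of all reads in place of counts on miRNA genes, the mean levels were 22534 for Mir208b, 2897 for Mir208a, 1062 for Mir499 and 60.1 for Mir490. With either strand counted, which enlarges the total, Mir208a had 5574 CPM and Mir490 116 CPM, and Mir490 ranked 185. In single libraries its rank ran from 166 to 177. By total counts 48 genes were called higher in replicate 1, against 99 with TMM, and 155 higher in replicate 2, against 91. Mir490 then had a log2 ratio of -0.10 in place of 0.10, uncalled at adjusted p from 0.324 to 0.700 in the exact test under all scalings and filters tried. Of 82 alternative values, 71 kept their direction and call or stayed within the spread of the replicates. Some of these could not do otherwise, so this count is no measure of robustness. With 2 libraries, a level or log2 ratio from a single library always lies within 1 SD of the mean. The ratios between members with either strand counted were fixed as well. The comparison of the libraries cannot be run with a replicate left out. Depth limits Mir490 most, with 405 and 736 counts.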
